A study of Mus musculus with 6 samples.

Results

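Collagens, laminins and integrins are the genes that build the extracellular matrix around cells and the receptors that hold cells to it. The 76 genes described here, of 18193 measured, were taken by gene symbol: 42 collagen chains, 10 laminin chains, 20 integrin chains, the nidogens Nid1 and Nid2, perlecan (Hspg2) and fibronectin (Fn1). They came from arrays of neuralized embryoid bodies, aggregates of mouse embryonic stem cells in suspension culture. The stem cells were of 1 line that expressed a Gli1-FLAG transgene constitutively from the Rosa26 promoter, so both groups carried this transcription factor of the hedgehog pathway. After 2 days in suspension, 3 RA cultures were given all-trans retinoic acid at 500 nM for 3 days, and 3 Ag1.3 cultures were given the same dose together with 50 nM Ag1.3, which activates the hedgehog receptor component Smoothened. The series' design describes the cultures as parallel, which makes 3 pairs by replicate number. Each array read RNA of a whole culture, so fewer cells of a type and less RNA per cell cannot be told apart.

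A basement membrane is the thin sheet of matrix on which epithelia, the neural tube among them, rest. Laminins, trimers of an alpha, a beta and a gamma chain, form its first network, type IV collagen forms its second, and nidogens and perlecan join these networks. Integrins, each a pair of an alpha and a beta chain, bind these proteins at the cell surface. Fibrillar collagens and fibronectin form the matrix of mesenchyme. In embryoid bodies, primitive endoderm and its derivatives are a known source of laminin and type IV collagen.

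In limma's test, blocked on the pair and adjusted over all genes by Benjamini-Hochberg, 0 of the 76 genes passed an adjusted p of 0.05, where 252 of 18193 genes, 1.39%, did. The members called higher and lower were 0 each, beside 1.07% and 0.313% of all genes. The lowest adjusted p of the 76 was 0.0610, for the integrin chain Itga4. At an unadjusted p under 0.05 there were 16 members, or 21.1%, beside 14.9% of all genes, and 8 of them read higher with Ag1.3 and 8 lower, beside 7.24% and 7.68% of all genes. Their log2 fold changes were small, from -0.65 for Itga3 to 0.85 for Itga4, on the scale of log2(intensity + 16), which understates changes at low intensity. The median over the 76 was 0.03, with 42 values above 0 and 34 below, beside a median of -0.01 over all genes. On the log2(intensity + 16) scale the 95% interval lay within a 2-fold change either way for 75 of the 76, as it did for 98.4% of all genes. Itga4 was the exception, with an interval that began at 0.51 in log2. At low intensity the added 16 itself holds values within such a range, so the interval does not bound the change in intensity there. Lama2 was within the range with mean intensities of 2.84 in RA and 7.27 with Ag1.3.

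Background was read from the unspiked control probe sets. These controls target transcripts not added to the sample, and their 18 values lay between 4.02 and 20.71. Of the 76 members, 55 read above 20.71 on all 6 arrays, 72.4% beside 73.7% of all genes. On no array did 10 members, 13.2% beside 14.8%, read above it, among these Lama2, Lama4, Lamb3 and Itgb7. All 8 neural progenitor markers measured, among them Sox1, Sox2 and Nes, read above it on all 6 arrays, but so did all 6 pluripotency, all 6 simple epithelial and all 8 neuronal markers, so this does not check the neural label.

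The promoters of the genes with the largest positive and negative change, and of the laminin chain that differed most between pairs, are shown because they stand at the ends of the ranges described here. The 250 bases upstream of the annotated start are from RefSeq, build GRCm38.p6, written 5′ to 3′ on the gene's strand, with capitals for GC boxes and CCAAT boxes on either strand.
Itga4, chr2:79255176-79255425, plus strand: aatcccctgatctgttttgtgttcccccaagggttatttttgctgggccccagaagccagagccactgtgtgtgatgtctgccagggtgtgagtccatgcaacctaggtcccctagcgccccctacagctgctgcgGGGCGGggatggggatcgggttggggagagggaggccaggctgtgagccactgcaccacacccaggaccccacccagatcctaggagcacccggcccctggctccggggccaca
Itga3, chr11:95076715-95076964, minus strand: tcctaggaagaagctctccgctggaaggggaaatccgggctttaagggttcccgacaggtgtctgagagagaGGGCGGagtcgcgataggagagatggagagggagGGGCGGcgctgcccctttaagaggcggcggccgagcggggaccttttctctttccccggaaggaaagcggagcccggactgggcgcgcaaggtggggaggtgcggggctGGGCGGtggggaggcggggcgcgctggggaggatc
Lamb1, chr12:31265043-31265292, plus strand: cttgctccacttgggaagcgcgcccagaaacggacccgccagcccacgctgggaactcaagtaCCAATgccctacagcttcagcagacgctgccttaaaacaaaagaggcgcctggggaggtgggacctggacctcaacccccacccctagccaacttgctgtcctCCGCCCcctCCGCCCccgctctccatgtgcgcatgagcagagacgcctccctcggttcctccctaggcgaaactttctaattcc

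Such windows were at hand for 55 of the 76 members. All motifs were searched on both strands, and GC and CCAAT boxes did not overlap in the windows shown. The letters TGGGTGGTC, a core of the site bound by Gli factors, were in 0 of these 55 and in 0.207% of 27025 promoters of the same length. The GC box letters GGGCGG were in 29 of the 55, or 52.7%, beside 33.0% of all promoters. The letters CCAAT were in 16 members, 29.1% beside 34.5%. The TATA box letters TATAAA were in 5 members, 9.09% beside 13.0%. These counts describe letters in the windows only.

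Among the laminin chains, the alpha chain Lama1 and the beta chain Lamb1 read in opposite directions, and their gamma partner Lamc1 differed little. Lama1, the chain of the earliest embryonic basement membranes, read 310.57, 291.35 and 373.02 in RA replicates 1 to 3 and 506.09, 430.83 and 452.89 with Ag1.3. All 3 Ag1.3 cultures lay above all 3 RA cultures, which was so for 6.45% of all genes. The means were 325 ± 42.7 and 463 ± 38.7 (SD, n = 3 each), and in limma's test the log2 difference was 0.50 (SE 0.10, adjusted p = 0.104). Lamb1 read 250.72, 344.49 and 928.46 in RA and 153.17, 288.69 and 791.92 with Ag1.3. Each Ag1.3 culture was below its RA partner, while the groups overlapped, with both cultures of pair 3 far above the others. In limma's test the log2 difference was -0.37 (SE 0.11, adjusted p = 0.212). Of the 3 further Lamb1 probe sets, the brighter ones gave -0.46 and -0.45, and the one with a mean of 19.8, in the range of the unspiked controls, gave 0.25. Lamc1 read 274.42, 342.42 and 527.04 in RA and 285.49, 303.98 and 490.18 with Ag1.3, lower in 2 of 3 pairs, with a log2 fold change of -0.07 and a 95% interval of -0.28 to 0.14. Whether the change of Lama1 differed from that of Lamb1 was not tested.

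The other laminin chains gave little to compare. Lama5, an alpha chain of many epithelial basement membranes, read 84.14, 79.19 and 123.09 in RA and 58.47, 73.53 and 107.54 with Ag1.3, lower in all 3 pairs with a log2 difference of -0.23 and an unadjusted p of 0.0562 in limma's test. Lama2, an alpha chain best known in muscle, had an unadjusted p of 0.0135 in limma's test with means of 2.84 and 7.27, neither above the unspiked controls. Over the 10 chains the median log2 fold change was -0.01.

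**Figure D1:**
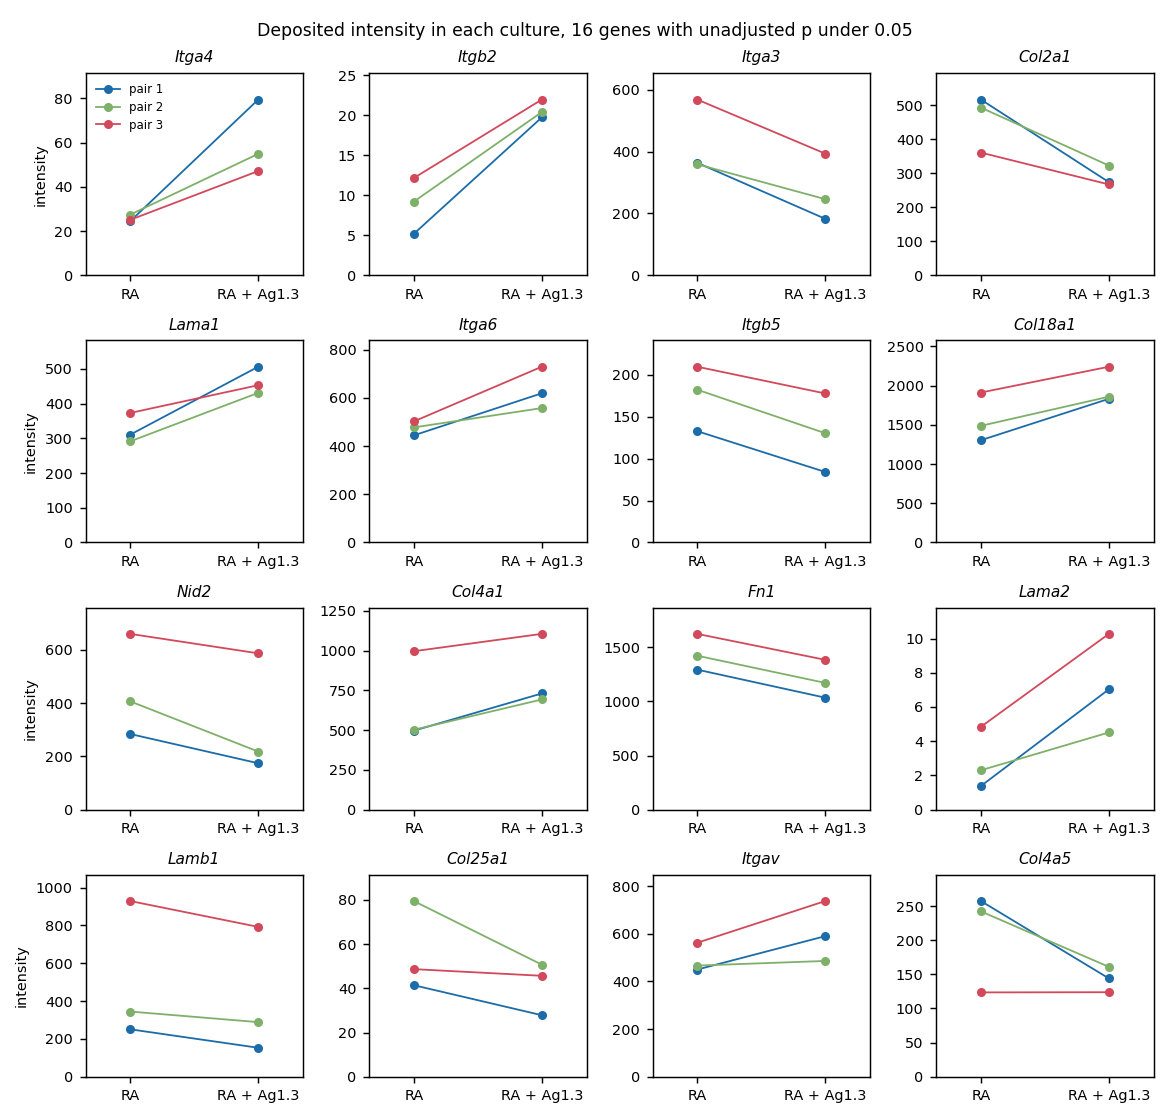
Deposited intensity (vertical axis, linear, starting at 0 and scaled for each gene) of the 16 members with an unadjusted p under 0.05, in RA and in RA with Ag1.3, 1 point per culture, with lines joining the 3 pairs of parallel cultures. The lines slope the same way in all pairs for 15 of the 16, Col4a5 being flat in pair 3. Picking genes by a paired test favours such slopes. For Lamb1 and Nid2 pair 3 lies above both other pairs at either end of the line.

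Type IV collagen is built from chains whose genes lie head to head in pairs. For Col4a1 and Col4a2, which encode the chains found in nearly all basement membranes, the annotated starts on chromosome 8 were 21 bases apart. Their transcripts overlapped there. For Col4a5 and Col4a6 on chromosome X the starts were 1343 bases apart, and the transcripts did not overlap (RefSeq, GRCm38.p6). Col4a1 read 496.43, 501.84 and 996.08 in RA and 730.35, 692.53 and 1105.07 with Ag1.3. It was higher with Ag1.3 in all 3 pairs, although RA replicate 3 exceeded Ag1.3 replicates 1 and 2, so the groups overlapped. In limma's test it differed by 0.38 in log2 (SE 0.10, adjusted p = 0.177), and its further probe set gave 0.44. Col4a2 read 361.31, 385.34 and 568.97 in RA and 417.65, 417.54 and 657.58 with Ag1.3, also higher in all 3 pairs. The log2 difference was 0.17 with a 95% interval of -0.01 to 0.36, and it was -0.01 when the arrays were centred on their hybridization spikes. Col4a5 read 257.27, 242.14 and 123.51 in RA and 144.03, 160.90 and 123.80 with Ag1.3. It was lower with Ag1.3 in pairs 1 and 2, while the cultures of pair 3 read nearly alike. The log2 difference was -0.44 (SE 0.16, adjusted p = 0.284 in limma's test), and the further probe set gave -0.37. Col4a6 had a log2 fold change of -0.08 with an interval of -0.33 to 0.18, and the difference between it and Col4a5 was not tested.

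Col18a1, the collagen of basement membranes whose end fragment is endostatin, read 1303.44, 1486.55 and 1911.31 in RA and 1830.71, 1857.89 and 2239.86 with Ag1.3. It was higher in all 3 pairs, with RA replicate 3 above Ag1.3 replicates 1 and 2. Its log2 difference was 0.34 (SE 0.09, adjusted p = 0.153 in limma's test), and its further probe set gave 0.27.

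Both nidogens had log2 fold changes below 0, and for both the range between pairs was larger than that change. Nid2, a linker of laminin and type IV collagen, read 284.12, 406.75 and 660.44 in RA and 174.28, 218.21 and 587.39 with Ag1.3. Each Ag1.3 culture was below its partner, and Ag1.3 replicate 3 was still above RA replicates 1 and 2. In limma's test the log2 difference was -0.56 (SE 0.14, adjusted p = 0.163). Nid1, the related linker, was lower in 2 of 3 pairs with a log2 fold change of -0.17 and an interval of -0.44 to 0.09. Hspg2, a large heparan sulphate proteoglycan, had probe sets that disagreed. The chosen one went from 288 ± 42.9 to 333 ± 12.2 (SD, n = 3 each), a log2 fold change of 0.21 with an unadjusted p of 0.0958 in limma's test. The other went from a mean of 269 to 220, with a log2 fold change of -0.29 and an unadjusted p of 0.0138 in limma's test over all probe sets. No direction is therefore given for this gene.

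Fn1, the ligand of several integrins and a protein of mesenchymal matrix, read 1293.44, 1422.26 and 1624.08 in RA and 1034.48, 1171.04 and 1384.32 with Ag1.3. Each Ag1.3 culture was below its partner, and the groups overlapped through Ag1.3 replicate 3. In limma's test it differed by -0.27 in log2 (SE 0.07, adjusted p = 0.178), and its further probe set gave -0.44.

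Of the 11 fibrillar collagens, which form the tension-bearing fibrils of connective tissue, 10 had a log2 fold change below 0, beside 52.0% of all genes, and Col11a2 at 0.12 was the exception. Most of these were small, with a group median of -0.07, and the pairs differed, with 8 of the 11 below 0 in pair 1, 9 in pair 2 and 4 in pair 3. Of the 10, Col24a1 did not read above the unspiked controls on any array. Col5a1 and Col5a2 changed sign with the mean of probe sets. Col2a1, the main collagen of cartilage and also made by the notochord and the early neural tube, stood apart in this group. It read 516.17, 492.60 and 360.44 in RA and 273.82, 322.49 and 266.95 with Ag1.3. Every Ag1.3 culture lay below every RA culture, a separation downward found for 5.35% of all genes and, among the 76 members, for Col2a1 alone. The means were 456 ± 83.9 and 288 ± 30.3 (SD, n = 3 each), 1.54-fold lower on the log2(intensity + 16) scale. The log2 difference was -0.63 (SE 0.11, adjusted p = 0.0731 in limma's test). No further probe set read this gene.

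Fibrillar collagens of mesenchyme and bone differed by less than the spread between cultures. Col1a1 had a log2 fold change of -0.06 with a 95% interval of -0.31 to 0.20, Col1a2 -0.11 with -0.37 to 0.16, and Col3a1 -0.14 with -0.47 to 0.20. Col5a1 gave -0.03 and Col5a2, which joins it in type V collagen, -0.01, and with the mean of probe sets these were 0.11 and 0.05. A dimmer Col5a1 probe set, with a mean of 23.0, gave 0.36 with an unadjusted p of 0.00811 in limma's test over all probe sets, so no direction is given for Col5a1. Col25a1, a transmembrane collagen of neurons, read 41.39, 79.44 and 48.65 in RA and 27.83, 50.69 and 45.65 with Ag1.3, lower in all pairs with overlapping groups. The log2 difference was -0.32 (adjusted p = 0.255 in limma's test), and its other probe set gave 0.13.

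Collagens that coat fibrils or form beaded filaments were 9 fibril-associated and 5 type VI chains. At the chosen probe sets, no member among them had an unadjusted p under 0.05. Among the fibril-associated chains, log2 fold changes ran from -0.21, for Col20a1, to 0.18, with Col12a1 at 0.08 and Col16a1 at 0.03. A dimmer Col20a1 probe set, with a mean of 33.9, gave 0.36 with an unadjusted p of 0.0366 in limma's test over all probe sets. Those with means of 1.38 and 1.18 gave 0.02 and 0.03. No direction is therefore given for Col20a1. A dimmer Col12a1 probe set, with a mean of 26.8, gave -0.46 with an unadjusted p of 0.0166 in limma's test over all probe sets, so no direction is given for Col12a1 either. Col22a1 was the 1 chain of this group whose cultures separated, at 98.91, 92.74 and 104.86 in RA and 105.98, 123.03 and 109.68 with Ag1.3. Its log2 fold change was 0.17 with an interval of -0.06 to 0.40. A dimmer Col22a1 probe set, with a mean of 24.9, gave 0.38 with an unadjusted p of 0.00531 in limma's test over all probe sets. The remaining one gave 0.12. The type VI chains Col6a1, Col6a2 and Col6a3, which assemble into 1 molecule, gave 0.05, 0.03 and -0.01. Col7a1, which anchors epithelia to the tissue beneath, gave 0.10 with an interval of -0.13 to 0.33.

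**Figure D2:**
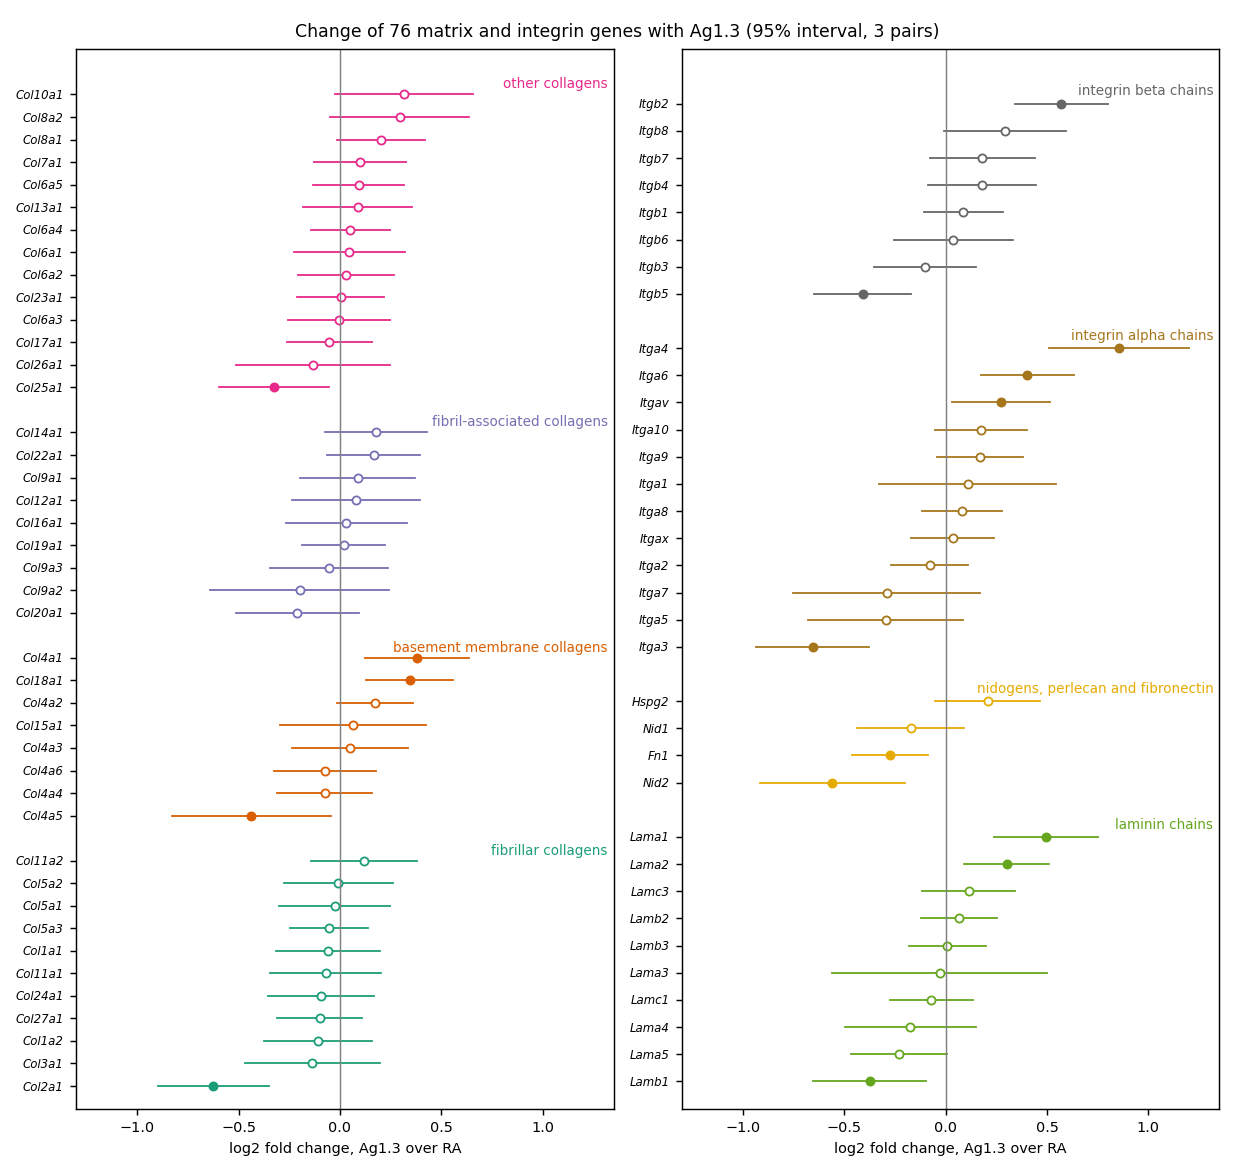
Log2 fold change with Ag1.3 (horizontal axis, 0 meaning no difference) of the 76 genes, grouped by role, with limma's 95% interval as a line and filled circles for an unadjusted p under 0.05. Values spread to both sides of 0 within the basement membrane collagens, the laminins and the integrins, while 10 of 11 fibrillar collagens lie below 0, most by little and with intervals that include 0.

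The integrins held both ends of the range. Itga4, a receptor for fibronectin that neural crest and blood cells use, read 24.48, 27.44 and 25.09 in RA and 79.44, 54.91 and 47.13 with Ag1.3. The RA cultures were close together, at values just above the highest unspiked control of 20.71, and all 3 Ag1.3 cultures were higher. The means were 25.7 ± 1.56 and 60.5 ± 16.9 (SD, n = 3 each), 1.81-fold on the log2(intensity + 16) scale, with a log2 difference of 0.85 (SE 0.14, adjusted p = 0.0610 in limma's test). A further 4 probe sets had means of 9.67 to 22.5 near the unspiked controls, and gave 0.42, 0.25, 0.12 and -0.06. Its known beta partners Itgb1 and Itgb7 gave 0.09 and 0.18 in log2 fold change, with intervals that included 0.

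Itga3 and Itga6 are both receptors for laminins, and they read in opposite directions. Itga3 read 363.70, 358.94 and 568.14 in RA and 182.59, 246.15 and 393.37 with Ag1.3, lower in all 3 pairs and 1.57-fold lower on average. Pair 3 was above the others in both groups, so that Ag1.3 replicate 3 exceeded RA replicates 1 and 2. In limma's test it differed by -0.65 in log2 (SE 0.11, adjusted p = 0.0701), and its further probe sets gave -0.28 and -0.43. Itga6 read 444.62, 477.54 and 502.50 in RA and 619.24, 557.83 and 729.49 with Ag1.3. All Ag1.3 cultures were above all RA cultures, with a log2 difference of 0.40 (SE 0.09, adjusted p = 0.130 in limma's test), and its further probe set gave 0.36. Whether the changes of Itga3 and Itga6 differed from each other was not tested. Itgb1, the beta chain that pairs with both, read 267.74, 274.96 and 292.49 in RA and 304.67, 288.82 and 295.69 with Ag1.3. Its log2 fold change of 0.09 had a 95% interval of -0.11 to 0.28 and became -0.10 when the arrays were centred on the hybridization spikes.

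Itgav and its beta partners bind fibronectin, vitronectin and latent TGF-beta. Itgav read 449.72, 466.26 and 562.12 in RA and 589.76, 485.70 and 736.94 with Ag1.3, higher in all pairs with a log2 difference of 0.27 (adjusted p = 0.284 in limma's test). Of its further probe sets, 1 with a mean of 40.0 gave 0.23, and 1 with a higher mean of 70.5 gave -0.10. The 2 with means under 20.71 gave -0.03 and -0.09. Itgb5 read 132.81, 182.34 and 209.78 in RA and 84.15, 130.40 and 177.85 with Ag1.3, lower in all 3 pairs. The log2 difference was -0.41 (SE 0.10, adjusted p = 0.134 in limma's test), and its 3 further probe sets gave -0.39, -0.45 and -0.45. Itgb8, a chain of neural progenitors, read 722.33, 569.11 and 273.58 in RA and 785.25, 634.11 and 425.48 with Ag1.3, higher in all 3 pairs. The log2 difference was 0.29 with an unadjusted p of 0.0538 in limma's test, and pair 3 was lowest in both groups.

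Itgb2, the beta chain of white blood cells, went from 5.18, 9.20 and 12.15 to 19.71, 20.38 and 21.94. The groups did not overlap, with a log2 difference of 0.57 (adjusted p = 0.0626 in limma's test), but 5 of the 6 values were within the range of the unspiked controls. Itgax, an alpha chain it pairs with, gave 0.03.

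Over the 76 genes, 6 had groups that did not overlap, or 7.89%, beside 11.8% of all genes, with Itga4, Itgb2, Itga6, Lama1 and Col22a1 higher and Col2a1 lower. The same direction in all 3 pairs was found for 28 members, 36.8%, beside 36.7% of all genes. Of these, 18 were higher, 23.7% beside 17.2%, and 10 lower, 13.2% beside 19.5%.

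Differences between pairs were large for many members, as for genes at large. For 61 of the 76 members, 80.3%, the range between the 3 pair means exceeded the change with Ag1.3, as it did for 78.8% of all genes. It did not for the other 15, among them Itga4, Itga6, Lama1 and Col2a1. The 2 cultures of pair 3 averaged above those of pairs 1 and 2 for 60 of the 76 members, 78.9%, beside 53.1% of all genes. The largest such difference was 1.72 in log2 for Lamb1, followed by 1.22 for Nid2, 0.98 for Nid1, 0.80 for Col4a1, 0.76 for Col3a1, 0.74 for Itga3 and 0.73 for Lamc1. Lama1 was at 0.13. Itgb8, at -0.95, and Col4a5, at -0.60, were lower in pair 3. Pair 3 was singled out after its values were seen, so these are descriptions without a test.

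**Figure D3:**
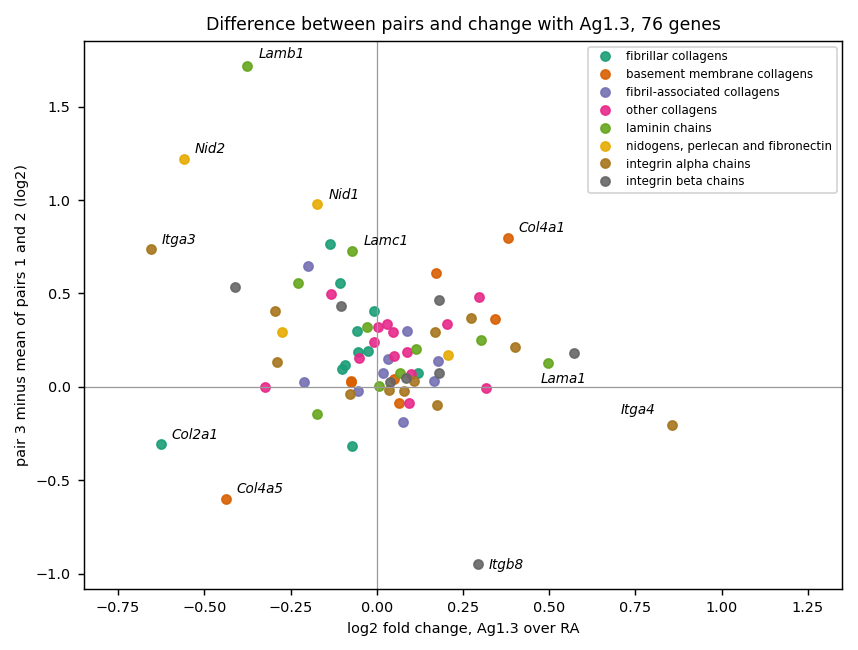
Each point is 1 of the 76 genes, with the log2 fold change with Ag1.3 on the horizontal axis and, on the vertical axis, the log2 mean of pair 3 minus that of pairs 1 and 2, coloured by role. Points lie above 0 on the vertical axis for 60 genes, with Lamb1 at 1.72 and Nid2 at 1.22, while the changes with Ag1.3 stay between -0.65 and 0.85.

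Markers of other cell types moved with the pairs too. The summed intensity of 6 simple epithelial markers, which include Krt8, Krt18 and Epcam, was 1018, 1142 and 2328 in RA replicates 1 to 3 and 559, 714 and 1799 with Ag1.3. The 6 pluripotency markers summed to 4839, 7041 and 7931 in RA and to 3044, 4535 and 6150 with Ag1.3. The 13 endoderm markers measured of 14 listed summed to 511, 620 and 801 in RA and to 451, 503 and 687 with Ag1.3, with 0 markers at an intensity of 0. The 12 mesenchyme and paraxial mesoderm markers summed to 606, 730 and 888 in RA and to 512, 557 and 770 with Ag1.3. All 4 of these sums were highest in pair 3 within each group and lower with Ag1.3 in every pair, as were Lamb1, Nid2 and Itga3. Col4a1 was also highest in pair 3 within each group, but higher with Ag1.3 in every pair. Of the 13 endoderm markers only Sox17 had an unadjusted p under 0.05 in limma's test, with means of 138 in RA and 52.0 with Ag1.3. In pair 3 Sox17 read 213.76 in RA and 93.22 with Ag1.3, a larger fall than that of the endoderm sum. The other endoderm markers together therefore did not fall in that pair. The median log2 fold change of the 13 was -0.01. Past limma's adjusted threshold, 1 marker fell in each of the first 3 lists, Krt8, Pou5f1 and Sox17, beside 0.313% of all genes. Of the 12 mesenchyme markers 0 passed. At an unadjusted p under 0.05 in limma's test, 5 of these 12 were lower, beside 7.68% of all genes. So were 5 of the 6 simple epithelial and 5 of the 6 pluripotency markers. The 8 endothelial markers summed to 226 to 300 in RA and 240 to 297 with Ag1.3, with 0 called. At an unadjusted p under 0.05, 1 of the 8, Kdr, was higher and 2, Pecam1 and Erg, were lower, beside 7.24% and 7.68% of all genes. The 8 neural progenitor markers summed to 9054, 7905 and 6137 in RA and to 9106, 8378 and 7149 with Ag1.3. The 8 neuronal markers summed to 1867, 1699 and 1193 in RA and to 5888, 4732 and 3905 with Ag1.3. Both sums were lowest in pair 3 within each group. Sums of 7 floor plate markers ran from 923 to 1095 and from 1931 to 3073, those of 6 neural crest markers from 419 to 469 and 462 to 507. In limma's test 7 neuronal and 4 floor plate markers were called higher, beside 1.07% of all genes, and 0 neural progenitor or neural crest markers were called. The part of these cell types in the values of the matrix genes was not tested.

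Other genes of the matrix and of adhesion were read from lists of 32 matrix proteins, 25 collagen-modifying enzymes, 19 proteases and inhibitors and 24 cytoplasmic partners of integrins. Among the 31 matrix proteins measured, 4 rose, 12.9% beside 1.07% of all genes, and 1 fell, 3.23% beside 0.313%, in limma's test. Vcan, the proteoglycan versican, read 383.93, 350.30 and 289.63 in RA and 708.60, 675.18 and 458.69 with Ag1.3, 1.74-fold higher on the log2(intensity + 16) scale with adjusted p = 0.0252 in limma's test. Frem1, a protein of the epithelial basement membrane, rose from 8.81 ± 1.86, a background value, to 56.8 ± 7.97 (SD, n = 3 each), with adjusted p = 0.00674 in limma's test. Spon1, of the floor plate matrix, rose from 55.6 ± 20.8 to 452 ± 96.6 (SD, n = 3 each), with adjusted p = 0.00287 in limma's test. Dcn, a small proteoglycan that binds collagen and the 1 of the 5 named after its value was seen, read 53.3 ± 16.5 and 81.7 ± 22.5 and passed with adjusted p = 0.0496 in limma's test. Npnt, nephronectin, a basement membrane ligand of integrins, fell from 140 ± 42.8 to 93.8 ± 34.9, with the same adjusted p of 0.0496. Timp3, a matrix-bound inhibitor of metalloproteinases, rose from 74.5 ± 18.2 to 204 ± 48.5, 2.42-fold on the log2(intensity + 16) scale with adjusted p = 0.0364 in limma's test, the 1 of 16 proteases and inhibitors measured that passed, 6.25% beside 1.07%. Of the 22 collagen-modifying enzymes and the 22 integrin partners measured, 0 passed in limma's test, beside 1.39% of all genes. In each list 4 had an unadjusted p under 0.05, 18.2% beside 14.9% of all genes. The smallest adjusted p among these was 0.0712, for Crtap, a subunit of the prolyl 3-hydroxylase complex, at a log2 fold change of -0.43.

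The count of members past the threshold rested on how the spread was estimated and on which genes were tested. When the moderation followed intensity, 10 members passed, 13.2% beside 4.90% of all genes. They were Lama1, Col4a1, Col18a1, Itga4, Itga6 and Itgb2, which were higher, and Itga3, Col2a1, Nid2 and Fn1, which were lower. Among genes with a mean above that of the median probe set, a test of 43 members, 8 passed, 18.6% beside 8.30% of the 11441 genes tested. With a pseudocount of 64 in place of 16 there were 8, 10.5% beside 4.57%. Lama1, Itga6, Col18a1, Itga3 and Col2a1 passed under all 3 of these settings. Centring on the hybridization spikes gave 13, 17.1% beside 9.93%, of which 11 were lower. The spikes' mean log2 intensity was 9.38, 9.67 and 9.56 in RA and 9.71, 9.70 and 9.78 with Ag1.3, higher in all 3 pairs. Without the replicate block 0 passed beside 0.473% of all genes. In that fit 6 of the 76 members had an unadjusted p under 0.05, beside 1348 of 18193 genes. With quantile normalization 0 passed, beside 1.48%, and 0 with the mean of probe sets, beside 1.18%. Leaving out pair 1, 2 or 3 gave 0 each time, beside 0.214%, 0.192% and 0.341%. Members at an unadjusted p under 0.05 were then 10, 18 and 23 of 76, beside 1579, 1983 and 3031 of 18193 genes. A pseudocount of 1 gave 0 among members and among all genes, with 14 members and 2411 genes at an unadjusted p under 0.05. The 16 members with an unadjusted p under 0.05 kept their direction under the 11 alternatives, or under the 10 that tested them. They were picked by that p on the same arrays, so this was largely set in advance. A member with the same direction in all 3 pairs cannot reverse when 1 pair is left out.

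**Figure D4:**
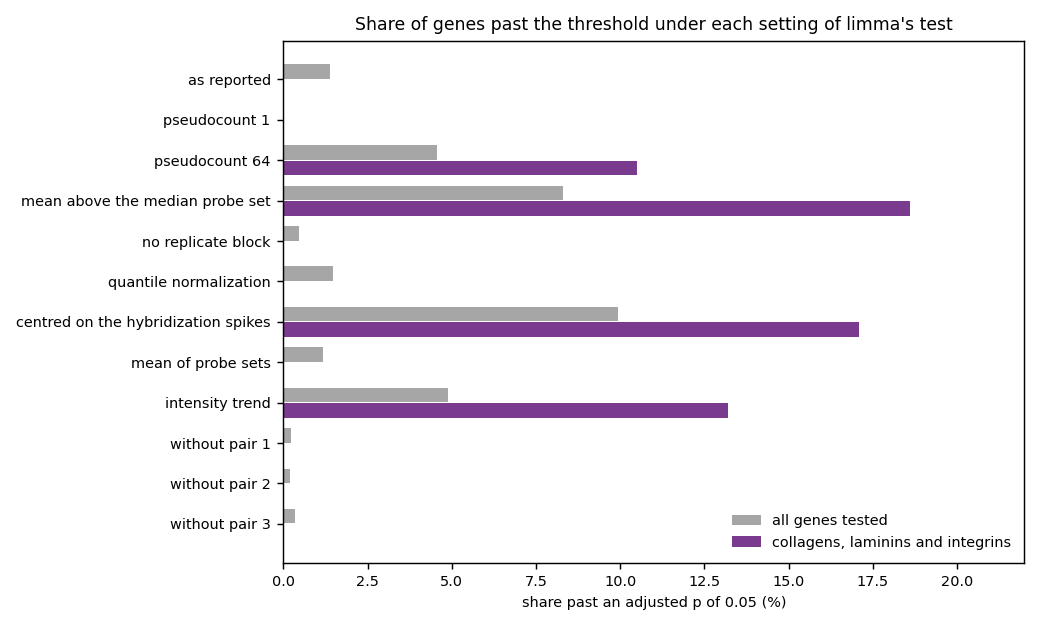
Share of genes past an adjusted p of 0.05 in limma's test (horizontal axis, percent, starting at 0) for all genes tested and for the collagens, laminins and integrins, as reported and under 11 alternative settings. Members passed under 4 of the settings, with shares of 10.5%, 18.6%, 17.1% and 13.2%, and under none of the other 7 nor as reported.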

How the data were processed

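RNA of 6 cultures was read on Affymetrix mouse arrays, from biotin-labelled cRNA made out of 2.5 µg total RNA, per the labels' protocols. The authors deposited 1 linear intensity per probe set. How these were summarised and scaled is not given in the sources used here. Of 45101 probe sets, 64 controls were left out, and 34945 of the others had 1 gene symbol in the platform annotation, which gave 18193 genes. Of several probe sets of a gene, the one highest in mean log2 value was used. Median intensities ran from 48.68 to 52.55 and precision is limited by having 6 arrays. Values were taken as log2(intensity + 16) and tested with limma 3.58.1 in R 4.3.3 (two-sided, replicate number as a block, Benjamini-Hochberg over all genes, threshold 0.05). The fit was tested on simulated data. SE and intervals are limma's moderated values. The pairing comes from the series' design text. Deviations from the group means correlated at 0.54, 0.19 and 0.56 across genes for same-numbered arrays. The p-values measure the spread of 3 pairs of cultures of 1 line. Named were members with an unadjusted p under 0.05, the 2 with the highest mean in each role group and partner chains, and from other lists at most 4 that passed, by smallest p. Others, such as Dcn, were named after their values were seen. The members, lists and tests were chosen with earlier results of these data known. Alternatives were other pseudocounts, a filter on low values, no block, quantile and spike scaling, the mean of probe sets, an intensity trend and leaving out each pair.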

Additional observations from a re-analysis of the deposited data

How the results depend on the processing

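The number of members past the threshold, 0 higher and 0 lower, became 4 and 4 with a pseudocount of 64, 4 and 4 among genes above the median probe set, 6 and 4 with the intensity trend, and 2 and 11 when arrays were centred on the hybridization spikes, which moved the median of all genes to -0.16 in log2. Relative to that shift the members' median of -0.11 was above it. It was 0 and 0 under the other alternatives, without any 1 pair included. Over all genes, 195 rose and 57 fell. These counts were 0 and 0 with a pseudocount of 1 (2411 at an unadjusted p under 0.05 in limma's test), 473 and 358 with 64, 497 and 453 above the median probe set, 78 and 8 without the replicate block, 315 and 1492 with spike centring, 515 and 376 with the intensity trend, and 33 to 43 and 2 to 19 without 1 pair. Called members were 0 with the block and 0 without it. Members at an unadjusted p under 0.05 in limma's test were 16 with the block and 6 without it, beside 2715 and 1348 of all genes.

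The members' median log2 fold change of 0.03 was 0.043 with a pseudocount of 1, 0.018 with 64 and -0.00052 to 0.029 without 1 pair. Among genes above the median probe set the median of basement membrane collagens was 0.26 and that of integrin alpha chains 0.17, and the latter was 0.045 with the mean of probe sets. Without 1 pair the former was 0.0090 to 0.072. With spike centring the medians were -0.044 for basement membrane collagens, -0.12 for fibril-associated collagens, -0.050 for integrin alpha and -0.0076 for integrin beta chains, -0.11 for laminins, -0.40 for nidogens, perlecan and fibronectin, and -0.11 for other collagens.

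Some members with changes near 0 changed sign. Spike centring gave Col12a1 -0.088, Col16a1 -0.14, Col4a2 -0.013, Col6a1 -0.12, Col6a2 -0.13, Col7a1 -0.069, Itgax -0.10 and Itgb1 -0.10. The mean of probe sets gave Col12a1 -0.036, Col5a1 0.11, Col5a2 0.052, Col6a2 -0.039 and Hspg2 -0.042, and quantile normalization gave Col6a3 0.0037. Without 1 pair the values ran from -0.093 to 0.18 for Col12a1, -0.12 to 0.12 for Col16a1, -0.17 to 0.029 for Col4a6, -0.14 to 0.10 for Col5a1, -0.10 to 0.12 for Col5a2, -0.026 to 0.18 for Col6a1, -0.059 to 0.12 for Col6a2, -0.10 to 0.10 for Col6a3 and -0.022 to 0.093 for Itgax. The causes were not tested. The 10 members that read no higher than the unspiked controls on any array have no level above background to compare.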

Other observations

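Some integrin genes fell outside the symbol patterns. Itga2b, the platelet integrin chain, read 158.49, 181.64 and 191.89 in RA and 170.87, 191.73 and 188.80 with Ag1.3, a log2 fold change of 0.05 with an unadjusted p of 0.537 in limma's test across all genes. Itgae gave -0.20, Itgal -0.12 and Itgbl1 0.05, none with an unadjusted p under 0.05. Itgam, the chain of myeloid cells that pairs with Itgb2, gave 0.24 with an unadjusted p of 0.0694 in limma's test, and all 6 of its values were in the range of the unspiked controls.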
